A study of Sus scrofa with 16 samples.

Results

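Protein folding and protein breakdown genes were followed in cultured pig muscle cells. The members were the genes whose symbol starts with HSP, DNAJ, PDIA or FKBP, with CCT and a digit, or with PSMA to PSMF and a digit, and *TCP1* was added. The rule found 50 of the 3875 genes counted. By general knowledge of where the proteins work, 19 members were placed among the cytosolic chaperones, 10 among the folding genes of the endoplasmic reticulum (ER), 18 in the proteasome and 3 in mitochondria. *HSPCB* is an older symbol of *HSP90AB1*, and *HSP27* an older symbol of *HSPB1*. Both symbols are kept here.

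The study compared satellite cells (SCs), the stem cells of skeletal muscle, of wild-type (WT) pigs with those of pigs without dystrophin (DMD), before and after a change to differentiation medium. DMD pigs lack exon 52 of the *DMD* gene, which encodes the membrane linker dystrophin and is the gene mutated in Duchenne muscular dystrophy. The SCs came from muscle of male piglets aged 3 days and were enriched by magnetic sorting, which removed CD31+ endothelial and CD45+ blood cells and then selected for integrin beta 1, NCAM1 and M-cadherin. RNA was taken at passage 6, so the cells had been expanded in culture before measurement. Both media and both genotypes together made 4 groups. PROL cells of both genotypes were kept in Ham's F10 medium with 20% fetal bovine serum and basic fibroblast growth factor. DIFF cells of both genotypes were kept in the same base medium with 5% horse serum, for 10 days by the sequencing methods and 7 days by the culture methods. Each of the 4 WT and 4 DMD animals gave 1 PROL and 1 DIFF sample, so replicates are animals, and each sample is the sum of 2 technical duplicates. Values of a group are given in the order of replicates 1 to 4.

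Molecular chaperones bind unfolded proteins and help them reach or keep their shape. In the cytosol these are the HSP70 and HSP90 families with their DNAJ and FKBP partners and the ring-shaped chaperonin TRiC, whereas in the ER protein disulfide isomerases (PDI) join cysteines and FKBP isomerases turn proline bonds in secreted and membrane proteins such as collagens. The proteasome degrades ubiquitin-tagged proteins with a 20S core of alpha and beta rings, a 19S cap of PSMC and PSMD subunits and activators of the PSME family, and muscle uses both systems for the turnover of its contractile proteins.

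Total counts were 1110050 to 1781174 per library, and the ribosomal RNA *RN18S* took 6.32% to 20.4% of them. The highest share was in DMD PROL replicate 4, where it was 31.99% in one technical duplicate and 7.14% in the other. The median difference between these duplicates over members was 0.494 on the log2 scale, against 0.107 to 0.217 in the other 15 libraries. Leaving this library out gave as many called members in each of the comparisons of 2 groups that use it. *DMD* was counted in every library, with 24 counts over the WT animals in PROL and 70 in DIFF, and 114 and 162 over the DMD animals, but reads from the 3′ end lie outside the deleted exon and check nothing about the label. Muscle stem cell and myoblast markers (10 of 17 genes in the table) summed to 3384 to 5212 CPM (counts scaled to one total for each library) in PROL and 4041 to 4546 in DIFF for WT, and to 5949 to 7233 and 9633 to 11199 CPM for DMD. Most of each sum was *ITGB1*, with means of 4196 ± 835 and 3415 ± 278 CPM for WT in PROL and DIFF. Its means for DMD were 5147 ± 771 and 7764 ± 672 CPM. In DMD against WT, 3 of 5 tested were called higher and 1 lower in PROL, and 5 of 6 higher and 1 lower in DIFF, the lower one being *VCAM1*, with means of 194 ± 68.5 and 484 ± 80.6 CPM for WT in PROL and DIFF and of 17.1 ± 3.31 and 25.5 ± 16.7 CPM for DMD. Among these markers, *MYF5* had 0 counts in both WT groups, and in DMD cells 30 in growth medium and 40 in differentiation medium, and *MYOD1* had 8 counts for WT in PROL and 4 in DIFF, and 52 and 16 for DMD. *CXCR4* was at 0 in all libraries, and *PAX7*, *NCAM1* and *CDH15* were not in the table used here. The WT libraries thus held few or no counts of *MYF5* and *MYOD1*, and whether their RNA was absent was not tested. Of the same list, *DES* had 434 counts for WT in PROL and 1578 in DIFF, and *MEF2C* had 52 and 254. In the same order, *MYOG* had 6 and 32 counts and *MYF6* had 8 and 4. By Western blot, the paper reports a MYOD protein band in proliferating cells of either genotype. Summed markers of muscle fibers (14 of 21 genes in the table) were at 235 to 346 CPM in PROL and 2767 to 4827 in DIFF for WT, and at 4702 to 8684 and 16959 to 20819 CPM for DMD. Summed fibroblast markers (8 of 14 genes in the table) were at 8379 to 10182 and 21879 to 24932 CPM for WT and at 4183 to 4702 and 10221 to 13367 CPM for DMD, each as PROL, then DIFF. Endothelial markers (4 of 10) summed to 107 to 133 and 60.2 to 113 CPM for WT and to 13.5 to 28.9 and 27.4 to 49.0 CPM for DMD, in the same order, and both of those tested were called lower in DMD in either medium. Blood markers (6 of 11) summed to 40.1 to 73.3 and 48.2 to 65.6 CPM for WT and to 25.7 to 41.1 and 18.2 to 24.5 CPM for DMD, the 1 tested was called lower in DMD in both media, and *CD3E* and *HBB* were at 0. Fiber and fibroblast markers thus moved with both genotype and medium, and summed myoblast markers, mostly *ITGB1*, lay higher in DMD. Those endothelial and blood markers that were tested between the genotypes were lower in DMD. The part of all these markers in the results that follow was not tested. In bulk samples, fewer cells of a type and less RNA per cell cannot be told apart.

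Of the 50 members, 43 had enough counts to be tested in at least 1 comparison and 42 in all 5. The 7 never tested were *HSP27*, *PSMF1*, *PSMB8*, *PSMB9*, *DNAJC5B*, *DNAJC6* and *DNAJB13*. The small heat shock gene *HSP27* and the proteasome inhibitor gene *PSMF1* had 0 counts in all 16 libraries, which allows a level of up to 0.123 CPM over the pooled libraries, counting error only. All deposited counts are even, and if each read was counted 2 times the limit is 0.246 CPM. In all, 608 of the 3875 genes had no count in any library, and whether such a 0 reflects absent RNA was not tested. The inducible immunoproteasome subunits *PSMB8* and *PSMB9* had 8 and 14 counts in all, with no count of *PSMB8* in DMD DIFF. *DNAJC6*, *DNAJC5B* and *DNAJB13* had 18, 10 and 4 counts in all. *FKBPL* was tested in 3 of the 5 comparisons and passed in none of them, at 0 to 12.3 CPM per library. Levels are CPM with TMM scaling over the 16 libraries. A member was called where edgeR's quasi-likelihood test gave a Benjamini-Hochberg adjusted p under 0.05 over all genes tested and the log2 fold change was beyond 0.6 in either direction. Errors of log2 fold changes are standard errors (SE), and those of levels are SD over 4 animals.

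In PROL, few members differed between DMD and WT. *PSMB10*, the inducible beta subunit of the immunoproteasome core, was at 128, 127, 91.9 and 84.8 CPM in WT PROL and at 64.9, 76.9, 55.2 and 59.1 CPM in DMD PROL. Every DMD library was below every WT library (log2 fold change -0.77, SE 0.18, adjusted p = 0.00471). *DNAJA4*, a cytosolic partner of HSP70, was at 13.0, 19.9, 15.3 and 10.8 CPM in WT PROL and at 3.68, 7.69, 1.17 and 5.25 CPM in DMD PROL. It was lower in all 4 DMD libraries (log2 fold change -1.75, SE 0.47, adjusted p = 0.0117), on few counts. These were the members called, 2 of 43, where 18.2% of all 1914 genes tested were called (8.36% higher and 9.87% lower), so called members were scarcer than genes at large. None of the 43 was called higher by edgeR or by DESeq2, while 6 were higher at an unadjusted p under 0.05. At an adjusted p under 0.05 without the limit on size, a reading added after the data were seen, 3 members were higher and 4 lower, beside 13.3% and 13.6% of all genes.

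The most abundant members by mean CPM within their class gave small differences in PROL. *HSPE1*, the mitochondrial co-chaperonin, rested on tight groups, at 1009, 1017, 965 and 1072 CPM in WT PROL and 1400, 1338, 1324 and 1279 CPM in DMD PROL. The groups did not overlap, yet the difference (log2 fold change 0.38, SE 0.07, adjusted p = 0.00119) was under the limit for a call. Its partner *HSPD1*, with which it forms the mitochondrial chaperonin, differed by 0.04 (SE 0.07, adjusted p = 0.719). For *DNAJC19*, of the mitochondrial import motor, the PROL difference was 0.11 (SE 0.14, adjusted p = 0.609). The HSP90 gene *HSPCB* was at 3264, 4667, 3635 and 2923 CPM in WT PROL and at 5784, 3718, 4741 and 4567 CPM in DMD PROL, with overlapping groups (0.36, SE 0.17, adjusted p = 0.152). The PDI genes *PDIA3* and *PDIA4* had means of 889 ± 159 and 410 ± 31.6 CPM in WT PROL and 902 ± 103 and 407 ± 31.9 CPM in DMD PROL, and their groups overlapped. In the ER, the log2 fold changes of the 10 members ran from -0.44 (*DNAJC3*) to 0.29 (*PDIA6*) and none was called by edgeR or DESeq2, with 5 at an unadjusted p under 0.05, all lower in DMD.

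**Figure D1:**
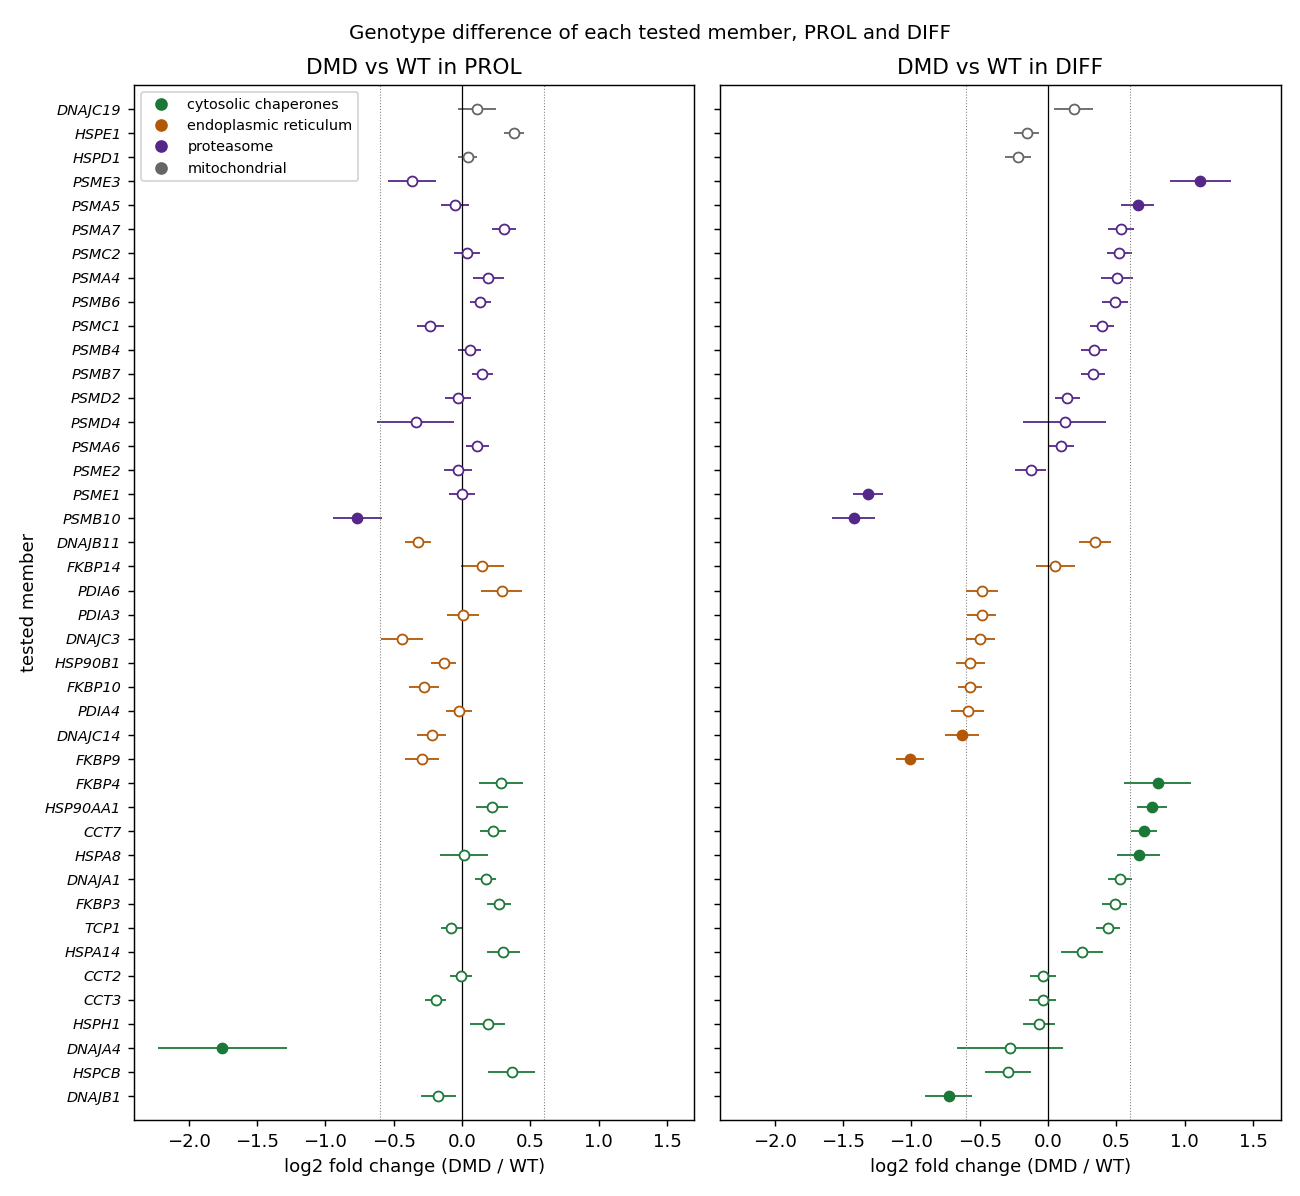
Log2 fold change of DMD over WT (x axis) for each of the 42 members tested in both media (y axis), in PROL at the left and in DIFF at the right. Points are edgeR estimates, bars are 1 SE, filled points are called members, dotted lines stand at a log2 fold change of 0.6 in each direction and colours mark the class. In DIFF 8 of 14 cytosolic and 12 of 15 proteasome members lie to the right of 0, and 8 of 10 ER members to the left. In PROL the points lie closer to 0 apart from *DNAJA4* and *PSMB10*.

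In DIFF the 3 main classes went apart between the genotypes. The median log2 fold change of DMD over WT was 0.34 over the 14 cytosolic members tested, -0.53 over the 10 ER members and 0.33 over the 15 proteasome members, beside -0.03 over all genes tested. With library size in place of TMM, which shifted the median of all genes to 0.10, the class medians were 0.48, -0.40 and 0.47 and kept their signs. In all, 6 members were called higher and 5 lower in DMD DIFF, 11 of 42, where 33.6% of all 1916 genes were called (16.1% higher and 17.5% lower). The share of called members was thus near or under that of all genes, and the number of calls is no result about the members. The classes differed more by direction. At an adjusted p under 0.05 without the limit on size, 8 of 10 ER members were lower and 1 higher, 9 of 15 proteasome members were higher and 2 lower, and 7 of 14 cytosolic members were higher and 1 lower. By the same reading, 22.9% of all genes were higher and 24.8% lower.

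Among the cytosolic chaperones, those called higher in DMD DIFF were *HSP90AA1*, *HSPA8*, *CCT7* and *FKBP4*. *HSP90AA1*, the stress-inducible HSP90, was at 304, 275, 290 and 230 CPM in WT DIFF and at 456, 490, 537 and 401 CPM in DMD DIFF. No DMD library overlapped WT (log2 fold change 0.76, SE 0.11, adjusted p = 2.91e-05). *HSPA8*, the constitutive cytosolic HSP70, was at 64.3, 54.1, 50.3 and 64.5 CPM in WT DIFF and at 93.7, 80.9, 99.4 and 101 CPM in DMD DIFF (0.66, SE 0.16, adjusted p = 0.00229). Its groups did not overlap either, but without WT DIFF replicate 3 the value was 0.59 and no longer called. For the TRiC subunit *CCT7* the WT libraries lay between 183 and 202 CPM and the DMD libraries between 311 and 337 CPM (0.70, SE 0.09, adjusted p = 1.02e-05). The HSP90 co-chaperone *FKBP4*, which helps steroid receptors mature, was at 27.3, 35.1, 32.2 and 14.8 CPM in WT DIFF and at 44.8, 46.9, 50.4 and 51.2 CPM in DMD DIFF (0.80, SE 0.25, adjusted p = 0.0137). Its WT spread came mostly from replicate 4, the lowest of the 16 libraries.

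*DNAJB1*, the HSP70 partner induced by heat shock, went the other way. It was at 120, 151, 141 and 161 CPM in WT DIFF and at 69.9, 83.3, 122 and 75.4 CPM in DMD DIFF. DMD replicate 3 lay within the WT range while the other three lay below it, and the difference was -0.73 (SE 0.17, adjusted p = 0.00198). With library size alone the value was -0.59 and not called. *DNAJA1*, another HSP70 partner, was at 1299, 1469, 1496 and 1303 CPM in WT DIFF and at 1988, 2048, 2089 and 2017 CPM in DMD DIFF, a clear gap between the groups (0.53, SE 0.09, adjusted p = 8.93e-05) that stayed under the limit for a call. The TRiC subunit *TCP1* had 0.44 (SE 0.09, adjusted p = 0.000499), also without overlap, whereas *CCT3* had -0.04 (SE 0.10, adjusted p = 0.777) and *CCT2* -0.04 (SE 0.09, adjusted p = 0.782). Subunits of the same ring thus had unequal differences.

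*HSPCB*, the constitutive HSP90, was called by edgeR in none of the 5 comparisons. Its interaction of genotype and medium (-0.66, SE 0.27, adjusted p = 0.0874) was called by DESeq2 (-0.65, adjusted p = 0.0385), and by edgeR without WT replicate 2 (-0.85, adjusted p = 0.0352). In DIFF it was at 4306, 4216, 3786 and 6456 CPM in WT and at 3628, 3378, 3681 and 4822 CPM in DMD, with overlap and a high WT replicate 4. The ratio of *HSP90AA1* to *HSPCB* counts was 0.0620 ± 0.0182 in WT DIFF and 0.125 ± 0.0294 in DMD DIFF, and the lowest DMD ratio (0.0832) lay above the highest WT ratio (0.0767). Summed over all cytosolic members, the level was 9627 ± 1107 CPM in WT DIFF and 10267 ± 638 CPM in DMD DIFF, with overlap. Without *HSPCB*, the sum was 4936 ± 152 CPM in WT DIFF and 6390 ± 46.9 CPM in DMD DIFF. *DNAJA1*, the next most abundant member, made up 1392 ± 105 and 2035 ± 43.2 CPM of these sums. Of the 14 cytosolic members tested in DIFF, 8 had log2 fold changes above 0 and 6 below.

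**Figure D2:**
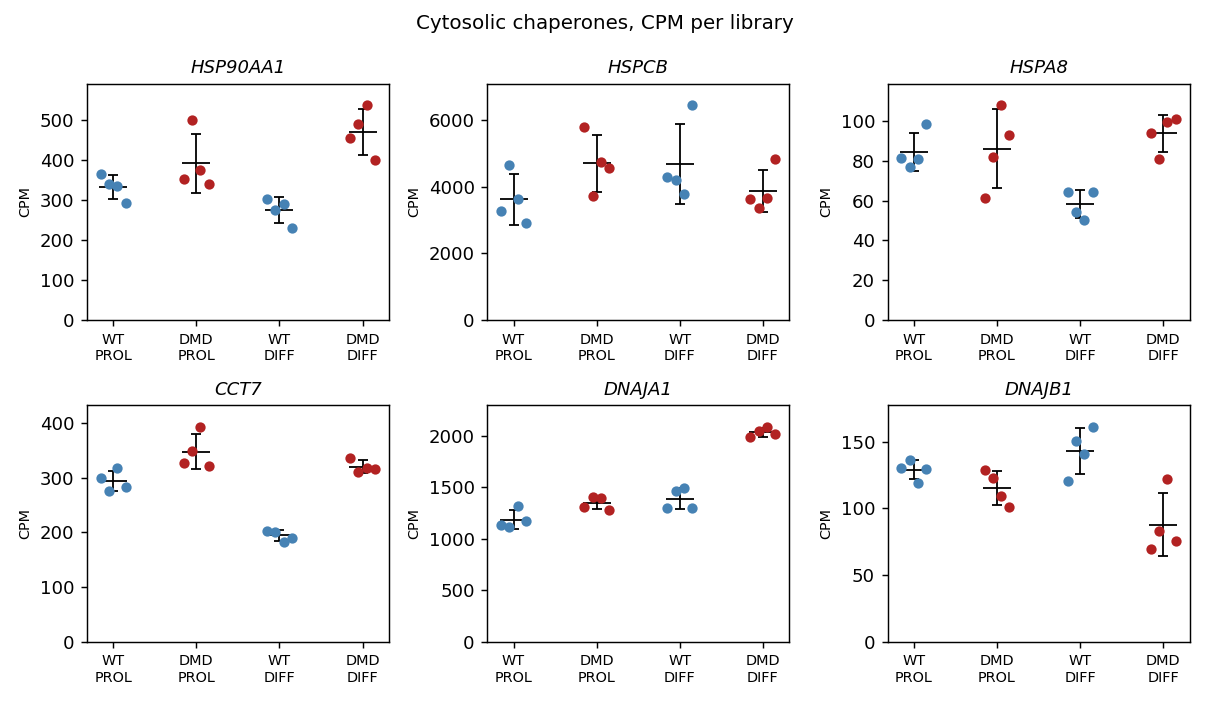
Levels of 6 cytosolic chaperone genes in CPM (y axis, from 0) in each of the 4 groups (x axis). Each point is 1 library, with WT in blue and DMD in red, and lines give the mean and SD over 4 animals. In DIFF the DMD points of *HSP90AA1*, *HSPA8*, *CCT7* and *DNAJA1* lie above all WT points, those of *DNAJB1* lie lower with 1 library in the WT range, and *HSPCB* overlaps.

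In the ER class, 8 of the 10 members had all 4 DMD DIFF libraries below all 4 WT DIFF libraries, an arrangement found in 22.5% of all genes. *FKBP9*, an ER prolyl isomerase, was at 349, 314, 348 and 359 CPM in WT DIFF and at 165, 188, 183 and 154 CPM in DMD DIFF. It had the largest difference of the class (log2 fold change -1.01, SE 0.10, adjusted p = 5.01e-07). *DNAJC14*, a membrane-bound DNAJ protein of the ER, was at 261, 200, 241 and 224 CPM in WT and at 133, 147, 143 and 185 CPM in DMD (-0.63, SE 0.13, adjusted p = 0.000588). Its call was lost with library size alone (-0.50) and without any of 3 libraries, which were DMD DIFF replicates 1 (-0.57) and 3 (-0.60) and WT DIFF replicate 1 (-0.57).

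Among the ER members, the PDI genes and the chaperone gene *HSP90B1* were lower by values under the limit for a call. *PDIA4* was at 256, 250, 356 and 306 CPM in WT DIFF and at 193, 215, 186 and 193 CPM in DMD DIFF, without overlap (-0.59, SE 0.12, adjusted p = 0.000633). *PDIA3*, which acts on glycoproteins bound to calnexin and calreticulin, was at 643, 703, 893 and 746 CPM in WT and at 561, 565, 547 and 485 CPM in DMD (-0.49, SE 0.10, adjusted p = 0.000944). For *HSP90B1*, the HSP90 of the ER, the WT libraries lay between 569 and 667 CPM and the DMD libraries between 344 and 467 CPM (-0.57, SE 0.11, adjusted p = 0.000266). The collagen-associated isomerase *FKBP10* lay between 525 and 588 CPM in WT and between 353 and 413 CPM in DMD (-0.57, SE 0.09, adjusted p = 5.05e-05). Without DMD DIFF replicate 2, *FKBP10*, *HSP90B1* and *PDIA4* passed the limit as well, and 8 members in all were called lower. *PDIA6* (-0.49) and *DNAJC3* (-0.50), the co-chaperone that restrains the kinase PERK, made up the rest of those lower at an adjusted p under 0.05. *DNAJB11*, a DNAJ partner of the ER HSP70, was the exception, with 145, 159, 173 and 176 CPM in WT and 218, 182, 210 and 230 CPM in DMD (0.34, SE 0.11, adjusted p = 0.0213). *FKBP14* had 0.05 (SE 0.14, adjusted p = 0.780). Summed over the class, the level was 3553 ± 231 CPM in WT DIFF and 2566 ± 105 CPM in DMD DIFF, where that of PROL was 3680 ± 392 CPM in WT and 3477 ± 140 CPM in DMD. Fibroblast markers were called lower in DMD DIFF for 5 of 8 genes and higher for 1. The collagens among them went in both directions. *COL3A1* had means of 4782 ± 83.7 CPM in WT DIFF and 1571 ± 249 CPM in DMD DIFF. In the same order, *COL1A2* was at 7849 ± 673 and 9114 ± 1144 CPM and *COL5A1* at 31.8 ± 6.71 and 101 ± 12.8 CPM. The part of these markers in the lower ER level was not tested.

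**Figure D3:**
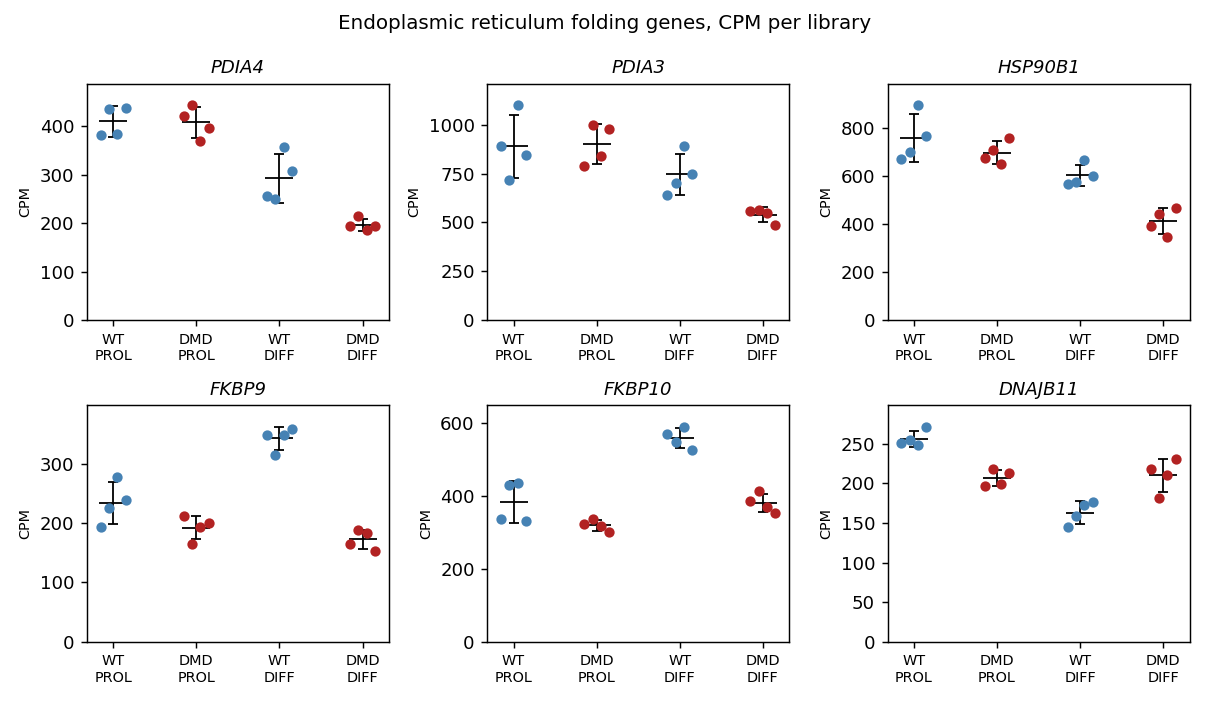
Levels of 6 ER folding genes in CPM (y axis, from 0) in each of the 4 groups (x axis). Each point is 1 library, with WT in blue and DMD in red, and lines give the mean and SD over 4 animals. DMD DIFF points lie below all WT DIFF points for *PDIA4*, *PDIA3*, *HSP90B1*, *FKBP9* and *FKBP10* and above them for *DNAJB11*.

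Of the 15 proteasome members tested in DIFF, *PSME1* and *PSMB10* were called lower in DMD and *PSMA5* and *PSME3* higher. *PSME1*, the alpha subunit of the interferon-inducible activator PA28, was at 1020, 1393, 1069 and 1211 CPM in WT DIFF and at 471, 487, 425 and 525 CPM in DMD DIFF. The lowest WT library thus stood far above the highest DMD library (log2 fold change -1.32, SE 0.11, adjusted p = 6.13e-08). Its partner *PSME2*, the beta subunit of the same ring, was at 276, 389, 356 and 388 CPM in WT and at 357, 324, 333 and 296 CPM in DMD, with overlap (-0.13, SE 0.11, adjusted p = 0.384). The ratio of *PSME1* to *PSME2* counts was 3.35 ± 0.340 in WT DIFF and 1.47 ± 0.226 in DMD DIFF, while in PROL it was 1.28 ± 0.128 in WT and 1.30 ± 0.139 in DMD. WT DIFF stood apart in this ratio, with a lowest value of 3.00 against a highest of 1.77 in the other three groups. *PSMB10* was at 137, 183, 152 and 184 CPM in WT DIFF and at 74.1, 64.5, 57.6 and 51.2 CPM in DMD DIFF (-1.42, SE 0.16, adjusted p = 1.23e-06). Its ratio to *PSMB7*, the constitutive subunit that it replaces in the immunoproteasome, was 0.271 ± 0.0506 in WT DIFF and 0.0799 ± 0.0140 in DMD DIFF.

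The other proteasome members had higher levels in DMD DIFF or did not pass. *PSMA5*, an alpha ring subunit, was at 139, 145, 138 and 120 CPM in WT DIFF and at 238, 184, 210 and 233 CPM in DMD DIFF (0.65, SE 0.12, adjusted p = 0.000234). *PSME3*, the nuclear activator PA28 gamma, was at 23.2, 33.6, 32.2 and 36.3 CPM in WT DIFF and at 71.3, 51.6, 93.6 and 59.7 CPM in DMD DIFF (1.11, SE 0.22, adjusted p = 0.000554). In both genes the groups were apart. Under the limit for a call but at an adjusted p under 0.05 were 7 further subunits, from 0.33 for *PSMB7* (SE 0.09, adjusted p = 0.00556) to 0.53 for *PSMA7* (SE 0.09, adjusted p = 0.000156), among them *PSMB6* at 0.49 (SE 0.10, adjusted p = 0.000458), *PSMB4*, *PSMA4* and the cap ATPases *PSMC1* and *PSMC2*. Over the 15 proteasome members tested, 9 had all DMD DIFF libraries above all WT DIFF libraries and 2 had all below. Among all genes the shares were 22.6% and 22.5%. The cap subunits *PSMD2* (0.14) and *PSMD4* (0.12) and the core subunit *PSMA6* (0.10) had overlapping groups. The constitutive core subunits among the members were *PSMA4*, *PSMA5*, *PSMA6*, *PSMA7*, *PSMB4*, *PSMB6* and *PSMB7*, which are not the whole core. Summed over these, the level was 2976 ± 190 CPM in WT DIFF and 3991 ± 233 CPM in DMD DIFF, against 3641 ± 155 and 4070 ± 87.9 CPM in WT PROL and DMD PROL.

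**Figure D4:**
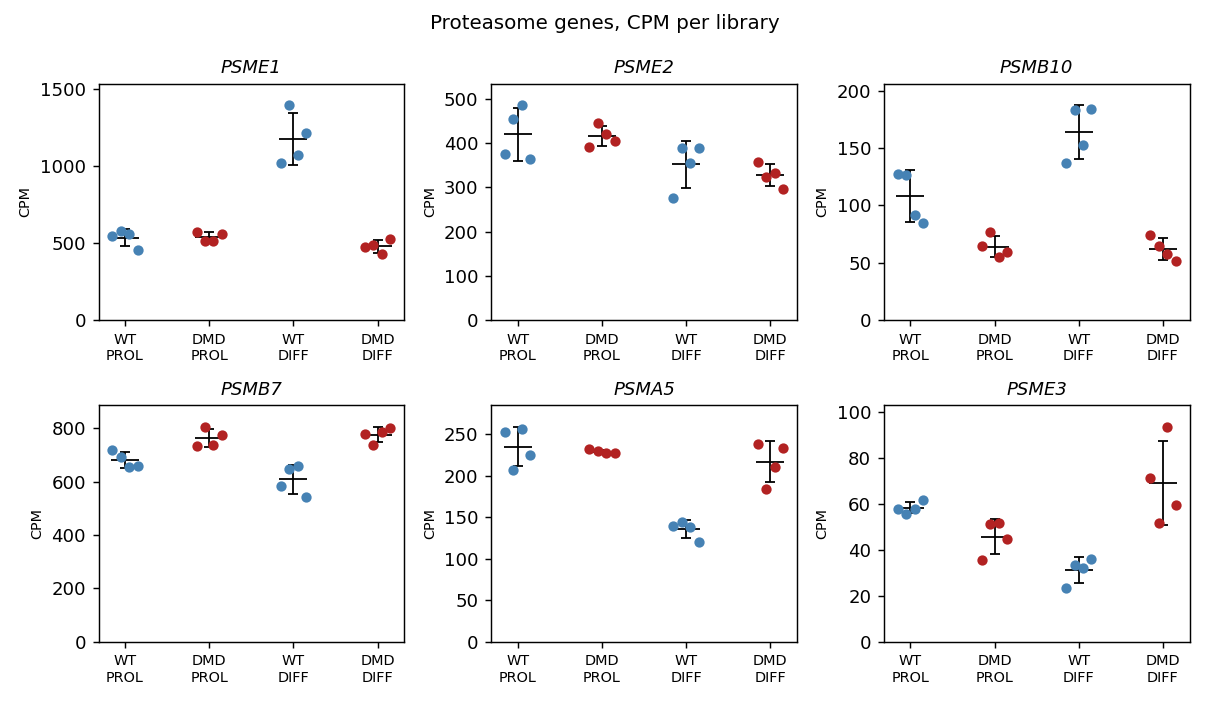
Levels of 6 proteasome genes in CPM (y axis, from 0) in each of the 4 groups (x axis). Each point is 1 library, with WT in blue and DMD in red, and lines give the mean and SD over 4 animals. *PSME1* is high in WT DIFF alone, where it lies between 1020 and 1393 CPM, *PSME2* overlaps in DIFF, *PSMB10* is lower in DMD in both media, and *PSMB7*, *PSMA5* and *PSME3* lie higher in DMD DIFF than in WT DIFF.

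The mitochondrial members were not called between the genotypes in DIFF. *HSPD1* was at 1071, 1032, 891 and 912 CPM in WT DIFF and at 834, 907, 756 and 899 CPM in DMD DIFF, with overlap (-0.22, SE 0.10, adjusted p = 0.0712). *HSPE1* differed by -0.16 (SE 0.09, adjusted p = 0.168) and *DNAJC19* by 0.19 (SE 0.14, adjusted p = 0.305). Neither edgeR nor DESeq2 called any of the 3, and 1 of them was at an unadjusted p under 0.05.

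Differentiation medium was compared with growth medium within each genotype, and these comparisons share their libraries with those between genotypes. In WT, *PSME1* was the member called higher, from 547, 577, 557 and 457 CPM in PROL to 1020, 1393, 1069 and 1211 CPM in DIFF. It rose in all 4 animals (log2 fold change 1.13, SE 0.11, adjusted p = 8.73e-07). *PSMB10* had a value of 0.598 (SE 0.16, adjusted p = 0.00705), just under the limit. With the animal as a replicate block it was 0.61 (adjusted p = 0.0046) and was called, so that 2 members were called higher.

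Called lower in WT DIFF were 7 members. *FKBP4* fell from 72.5, 82.0, 55.8 and 78.7 CPM to 27.3, 35.1, 32.2 and 14.8 CPM (-1.40, SE 0.25, adjusted p = 0.00024), without overlap. *PSME3* fell from 58.0, 55.9, 58.0 and 61.7 CPM to 23.2, 33.6, 32.2 and 36.3 CPM (-0.90, SE 0.20, adjusted p = 0.00161), and *PSMA5* from a mean of 235 ± 23.6 to 135 ± 11.0 CPM (-0.80, SE 0.12, adjusted p = 4.73e-05). In both, PROL and DIFF libraries were apart. The catalytic beta subunit *PSMB6* fell from 802, 859, 785 and 722 CPM to 468, 513, 584 and 478 CPM (-0.64, SE 0.09, adjusted p = 4.90e-05), but was not called without WT PROL replicate 2 (-0.59). *HSPA14*, an HSP70 relative bound to ribosomes, fell from 127 ± 11.9 to 77.9 ± 12.1 CPM (-0.70, SE 0.15, adjusted p = 0.00121). *DNAJB11* fell from 256 ± 10.4 to 163 ± 14.2 CPM (-0.65, SE 0.11, adjusted p = 0.000143). *CCT7* fell from 294 ± 18.5 to 194 ± 9.24 CPM (-0.60, SE 0.10, adjusted p = 0.000146) and lay so near the limit that leaving out WT DIFF replicate 3, WT PROL replicate 1 or WT PROL replicate 3 ended the call, with values of -0.58, -0.59 and -0.57. Halved counts (-0.599) and one fit over all 16 libraries (-0.585) ended it too.

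Of all 1921 genes tested in WT, 32.2% were called (17.9% higher and 14.3% lower), so that the lower members (7 of 43) were near the background and the higher members (1 of 43) under it. By adjusted p alone, 6 members were higher and 20 lower, beside 24.8% and 22% of all genes, and most of the lower ones were under the limit on size. The medians over members were -0.28 for the cytosol and -0.26 for the proteasome, beside 0.03 over all genes. The ER median was 0.05 with TMM but -0.30 with library size alone, and no direction can be given for it. This choice mattered most here, because TMM factors were 1.10 to 1.17 in WT PROL and 0.870 to 0.928 in WT DIFF. With library size alone the median of all genes moved to -0.32, and 22 members instead of 7 were called lower. Within the ER class of WT, the isomerases *FKBP9* (0.55, adjusted p = 0.000897) and *FKBP10* (0.54, adjusted p = 0.000657) had higher levels in DIFF, whereas *PDIA4* (-0.49, adjusted p = 0.003) and *HSP90B1* (-0.33, adjusted p = 0.0103) had lower ones, none of them past the limit on size. With library size alone these were 0.20, 0.19, -0.84 and -0.68 in that order, so that the first pair no longer passed an adjusted p of 0.05 and the second pair was called lower. The ratio of *FKBP10* to *PDIA4* counts, which needs no scaling between libraries, went from 0.938 ± 0.163 in WT PROL to 1.94 ± 0.303 in WT DIFF.

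In DMD cells, ER and mitochondrial folding genes made up most of the members called lower in DIFF. *PDIA4* fell from 421, 443, 370 and 395 CPM to 193, 215, 186 and 193 CPM, with a wide gap between the groups (log2 fold change -1.05, SE 0.10, adjusted p = 1.61e-07). *PDIA3* fell from 791, 999, 839 and 979 CPM to 561, 565, 547 and 485 CPM (-0.75, SE 0.09, adjusted p = 4.23e-06). *HSP90B1* fell from 674, 708, 649 and 759 CPM to 393, 442, 344 and 467 CPM (-0.77, SE 0.10, adjusted p = 6.92e-06). No library of either gene crossed between PROL and DIFF. *PDIA6*, a PDI that also binds the stress sensor IRE1, fell from 294, 320, 336 and 238 CPM to 210, 161, 157 and 159 CPM (-0.80, SE 0.13, adjusted p = 9.61e-05). The level summed over the PDI genes was 1606 ± 113 CPM in DMD PROL and 908 ± 56.0 CPM in DMD DIFF, and 1539 ± 192 and 1275 ± 167 CPM in the WT groups. The ratio of *FKBP10* to *PDIA4* went from 0.784 ± 0.0487 to 1.93 ± 0.0781 in DMD, close to the WT values in DIFF.

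*HSPD1* fell from 1288, 1378, 1336 and 1397 CPM in DMD PROL to 834, 907, 756 and 899 CPM in DMD DIFF (-0.67, SE 0.08, adjusted p = 2.42e-06), and *HSPE1* from 1335 ± 50.3 to 834 ± 77.0 CPM (-0.69, SE 0.08, adjusted p = 3.55e-06). Both chaperonin partners therefore fell by about as much. In the cytosol *FKBP4* fell from 88.6 ± 6.87 to 48.3 ± 3.02 CPM (-0.88, SE 0.15, adjusted p = 0.00015) and *HSPA14* from 157 ± 10.1 to 94.0 ± 6.85 CPM (-0.75, SE 0.13, adjusted p = 0.000126). *DNAJA4* rose from 3.68, 7.69, 1.17 and 5.25 CPM to 11.2, 18.8, 14.4 and 8.54 CPM (1.58, SE 0.49, adjusted p = 0.0156), but without DMD DIFF replicate 2 its value was 1.36 and not called. *DNAJA1* went from 1350 ± 63.9 to 2035 ± 43.2 CPM, without overlap (log2 fold change 0.59, SE 0.07, adjusted p = 4.34e-06) and just under the limit, and it passed without DMD PROL replicate 2 or 3. *PSME3* (0.58, adjusted p = 0.0308) passed without DMD DIFF replicates 2 and 4 and DMD PROL replicates 2 and 3, each left out singly, which raised the count called higher from 1 to at most 3. No proteasome member was called in DMD by edgeR or DESeq2, while 9 of 15 were at an unadjusted p under 0.05. *PSME1*, which rose in WT, was at 540 ± 29.9 CPM in DMD PROL and 477 ± 41.3 CPM in DMD DIFF (-0.18, SE 0.09, adjusted p = 0.0999). In all, 8 of 42 members were called lower and 1 higher, where 28.4% of all 1886 genes were called (16% higher and 12.4% lower). By adjusted p alone, 8 were higher and 12 lower, beside 22.1% and 20.3% of all genes. Fiber markers rose in DMD as well (8 of 10 tested), as in WT (7 of 7), and their part was not tested.

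**Figure D5:**
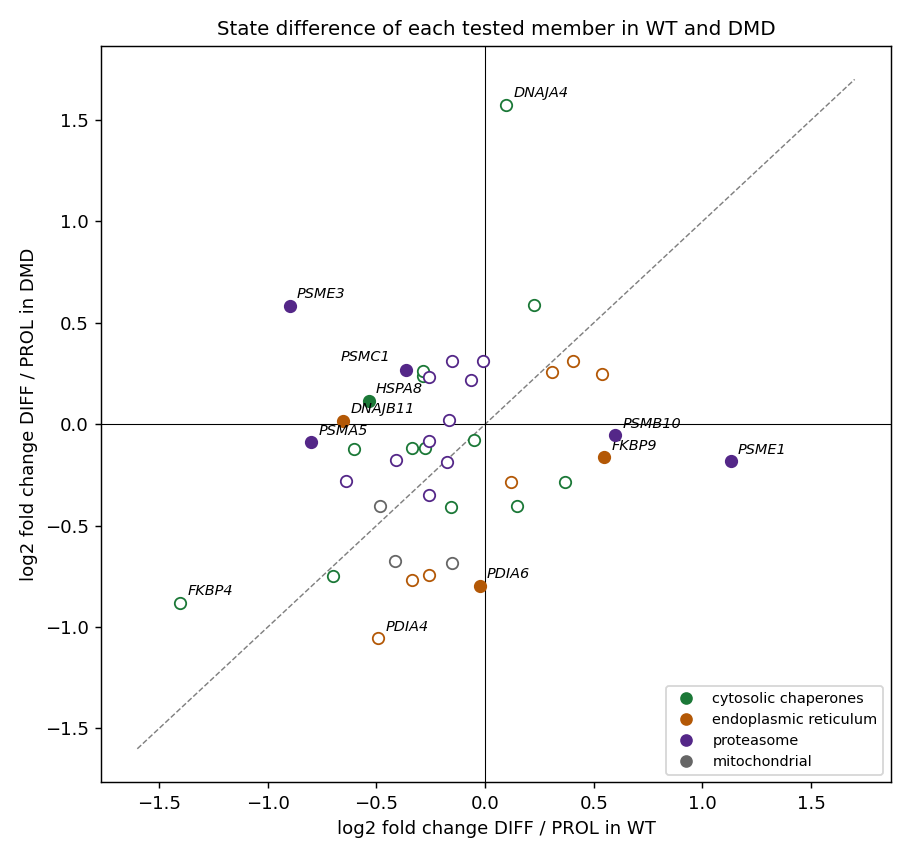
Log2 fold change of DIFF over PROL in WT (x axis) and in DMD (y axis), 1 point for each of the 42 members tested in both. Filled points are members called in the interaction of genotype and medium, colours mark the class and the dashed line marks equal change. *PSME1* lies far to the right at 1.13 in WT and -0.18 in DMD, *PSME3* lies in the upper left at -0.90 and 0.58, and *FKBP4* lies in the lower left with values of -1.40 and -0.88.

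The difference between the genotypes in their response to the medium was tested as an interaction over all 16 libraries. A positive value means a larger log2 change from PROL to DIFF in DMD than in WT. For *PSME1* it was -1.32 (SE 0.14, adjusted p = 2.79e-07), as it rose in WT and stayed at its PROL level or slightly below in DMD. For *PSME3* it was 1.48 (SE 0.28, adjusted p = 0.000355), from the fall in WT and a level in DMD that went from 45.8 ± 7.54 to 69.1 ± 18.3 CPM. *PSMA5*, which fell in WT and was at 229 ± 1.98 and 216 ± 24.6 CPM in DMD, had 0.70 (SE 0.15, adjusted p = 0.000983). The cap ATPase *PSMC1* had 0.63 (SE 0.12, adjusted p = 0.000497), with means of 388 ± 31.0 and 302 ± 7.78 CPM in WT PROL and DIFF and of 333 ± 32.7 and 402 ± 15.5 CPM in DMD. Its call was lost without DMD replicate 3 (0.57) or WT replicate 4 (0.597).

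In the ER class, *DNAJB11* had 0.66 (SE 0.14, adjusted p = 0.000939), being at 207 ± 9.97 CPM in DMD PROL and 210 ± 20.7 CPM in DMD DIFF after its fall in WT. *PDIA6* had -0.78 (SE 0.20, adjusted p = 0.00506), with WT means of 240 ± 55.3 and 237 ± 16.9 CPM beside the fall in DMD. *FKBP9* had -0.72 (SE 0.16, adjusted p = 0.00136), with DMD means of 192 ± 19.8 and 172 ± 15.8 CPM where WT went from 233 ± 34.9 to 343 ± 19.4 CPM. *PDIA6* (-0.51) and *FKBP9* (-0.44) were not called with library size alone. *HSPA8* (0.64, SE 0.23, adjusted p = 0.0413) and *PSMB10* (-0.66, SE 0.24, adjusted p = 0.0393) were called by a narrow margin. *HSPA8* lost the call when any animal but DMD replicate 3 was left out, with values of 0.51 to 0.71, and with no filter (0.65), and *PSMB10* lost it with library size alone (-0.38) and without DMD replicates 2, 3 or 4 or WT replicates 2, 3 or 4, with values of -0.50 to -0.69. In all, 5 of 43 members were called with a positive and 4 with a negative interaction, where 23.4% of all 2030 genes were called (10.5% positive and 13% negative), so the share was near the background. By adjusted p alone, 11 were positive and 8 negative, beside 13.2% and 15.7% of all genes. With library size alone, 13 members were called positive and 1 negative.

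Partner genes outside the symbol rule were read from lists drawn up by general knowledge, with earlier results of these data known. Of 43 further ER folding factors listed, 12 were in the table. Of these 12, 4 were called lower and 0 higher in DMD DIFF than in WT DIFF, beside 17.5% and 16.1% of all genes. The lower ones included *SEC62* of the ER import channel (-0.95, SE 0.09, adjusted p = 4.22e-07), *CNPY2* (-0.91, SE 0.10, adjusted p = 1.03e-06) and the collagen prolyl hydroxylase *P4HA1* (-0.66, SE 0.13, adjusted p = 0.000832). Their median was -0.53, and 7 of the 12 were lower at an adjusted p under 0.05, beside 24.8% of all genes. *SEC62* was also lower in DMD PROL (-0.73, SE 0.11, adjusted p = 0.000108), the only call of this list in PROL. From PROL to DIFF, *P4HA1* rose in WT (1.69, SE 0.11, adjusted p = 1.18e-08) and in DMD (1.06, SE 0.15, adjusted p = 0.00018). *MANF*, a factor secreted under ER stress, fell in WT (-0.66) and in DMD (-0.69), *SEC62* rose in WT (0.79) and the calcium-binding lectin chaperone *CALR* fell in DMD (-0.75, SE 0.18, adjusted p = 0.00707). With these, 2 members of the list were called higher and 1 lower in WT, and 1 higher and 2 lower in DMD, where 32.2% and 28.4% of all genes were called. In the interaction, with 13% of all genes negative, 3 of the list were called negative, *CNPY2* (-0.90), *SEC61B* (-0.63) and *P4HA1* (-0.65), and 0 positive.

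Of 35 listed genes of the unfolded protein response and ER degradation, 8 were in the table. Of these 8, 1 was called higher and 2 lower in DMD DIFF, a share near the 33.6% of all genes. *ASNS*, the asparagine synthetase gene that ATF4 activates, was higher (1.84, SE 0.12, adjusted p = 3.16e-09), at 357 ± 50.2 CPM in WT DIFF and 1299 ± 175 CPM in DMD DIFF. *XBP1*, a transcription factor that raises ER folding genes, was lower (-0.74, SE 0.10, adjusted p = 8.21e-06), at 495 ± 35.3 and 302 ± 22.5 CPM, and so was the ER stress sensor *ATF6B* (-0.67). Within DMD, *ASNS* (1.08) and *CREB3* (1.23) rose from PROL to DIFF, no gene of this list was called in WT by edgeR or DESeq2, where 4 were at an unadjusted p under 0.05, and the interaction was called for *ASNS* (1.33) and *XBP1* (-0.72). *VIMP* was the 1 gene called in PROL (-0.76). The tested genes of the list thus moved in both directions, with a median of 0.21 in DIFF.

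Of 39 further cytosolic chaperones and co-chaperones listed, 16 were in the table and 14 were tested between the genotypes. None was called in PROL by edgeR or DESeq2, with 0 at an unadjusted p under 0.05, and in DIFF the prefoldin subunit *PFDN6* was higher (0.63) and *TOMM34* lower (-0.89) in DMD, 2 of 14 beside the 33.6% of all genes. In WT, *NUDC* (-0.79), *CHORDC1* (-0.61) and *PFDN6* (-0.71) fell from PROL to DIFF, and in DMD none was called by edgeR or DESeq2 while 8 were at an unadjusted p under 0.05. The interaction was called for *UNC45A* (0.85) and *TOMM34* (-1.02).

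Of 37 ubiquitin and proteasome partners listed, 9 were in the table. In DIFF, 7 were tested and 3 of them called between the genotypes, a share near the 33.6% of all genes. *TRIM63*, the muscle ubiquitin ligase MuRF1, was higher in DMD DIFF (4.15, SE 0.45, adjusted p = 1.12e-06), at 2.00 ± 1.34 CPM in WT DIFF and 37.96 ± 7.38 CPM in DMD DIFF, and it rose within DMD (1.61, SE 0.35, adjusted p = 0.00122). *FBXO32*, the other muscle ligase known as atrogin-1, was lower in DMD DIFF (-0.86, SE 0.27, adjusted p = 0.0136), at 48.7 ± 11.4 and 27.05 ± 8.80 CPM. The pair of muscle ligases thus had opposite directions in DIFF. *UBE2L3*, a ubiquitin-conjugating enzyme, was higher in DMD DIFF (0.66, SE 0.09, adjusted p = 9.75e-06). *FBXO32* rose in WT (2.04), and the interaction was called for *UBE2L3* (0.63) and *FBXO32* (-1.59). None of the 6 tested in PROL was called by edgeR or DESeq2, with 0 at an unadjusted p under 0.05. *TRIM63* was not among these 6. Its means were 0.362 ± 0.725 CPM in WT PROL and 12.2 ± 7.39 CPM in DMD PROL. *TRIM63* and *FBXO32* are genes of muscle cells. Fiber markers were higher in DMD DIFF than in WT DIFF for 9 of 9 tested. From PROL to DIFF in WT, where *FBXO32* rose, they were called higher for 7 of 7 tested. The part of fiber content in the levels of *TRIM63* and *FBXO32* was not tested.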

How the data were processed

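Pig SCs of 4 WT and 4 DMD animals were measured by 3′ mRNA sequencing in PROL and DIFF, from 25 ng of total RNA per sample in technical duplicate. The authors removed duplicate reads by unique molecular identifiers with UMI-tools, aligned to susScr3 with STAR 2.7.10b and used its GeneCounts mode; annotation and strand setting are not given in the sources used here, so overlapping and antisense genes could share reads. The deposited values are raw counts per gene in 32 columns, used as they stand. All 124000 values are even, for a reason not given in the sources used here. Counts of closely related copies, such as HSP70 and HSP90 genes and their pseudogenes, are uncertain where reads were shared.

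Members and gene lists were chosen with earlier results of these data known, and *HSP27* was placed in its class after the table was read. Technical duplicates were summed (Pearson's r over members 0.967 to 0.996, no identical pair). Genes were filtered with filterByExpr (minimum count 10, minimum total 15), scaled by TMM and tested with edgeR 4.0.16 in R 4.3.3 (robust quasi-likelihood), on 8 libraries per comparison or all 16 for the interaction. Called genes had an adjusted p under 0.05 and a log2 fold change beyond 0.6. The members named with full statistics were up to 6 called members of smallest p per comparison and class, the 4 of highest mean CPM per class, every member called in the interaction and, of the partner lists, the 3 called of smallest p. Others named are described by values and were chosen after these were seen. The alternatives were DESeq2 1.42.0, RLE size factors, library size alone, a stricter filter (minimum count 30), no filter, halved counts, no *RN18S*, one fit over all libraries, a replicate block and leaving out each replicate. In simulated counts with 100 genes changed by each size, the test recovered 76% to 78% of genes changed by 1 on the log2 scale in comparisons of 2 groups (1866 to 1891 genes) and 55% in the interaction (1992 genes).

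Same-numbered PROL and DIFF samples are the same animal by their titles. Their deviations from group means correlated at 0.114 to 0.172 in WT and 0.0999 to 0.142 in DMD. Library totals of 1110050 to 1781174 limit the precision of genes with few counts. Intervals and floors (3 counts) cover counting error only. Promoter and protein sequences were not used here. One result of the partner lists is not reported here.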

Additional observations from a re-analysis of the deposited data

Results flagged for a closer look

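The change from PROL to DIFF was called different between DMD and WT for 9 of 43 members in edgeR's interaction test, where 23.4% of all 2030 genes were called. The log2 values were 1.48 for *PSME3*, 0.70 for *PSMA5*, 0.66 for *DNAJB11*, 0.64 for *HSPA8*, 0.63 for *PSMC1*, -0.66 for *PSMB10*, -0.72 for *FKBP9*, -0.78 for *PDIA6* and -1.32 for *PSME1*. *HSPA8* kept its call in 8 and *PSMB10* in 9 of 16 alternatives, and the others in 14 to 16.

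Single libraries stood apart from the other three of their group in 6 of 172 groups screened, by Dixon's criterion, which chance meets in about 1 of 20 groups. *DNAJC19* was at 161 CPM in DMD DIFF replicate 4, against 120 to 125 in the others. *PDIA6* was at 209.8 CPM in DMD DIFF replicate 1, against 157 to 161. *PSMC2* was at 398 CPM in DMD PROL replicate 2, against 323 to 335, and *PSMD2* at 348 CPM in WT DIFF replicate 3, against 311 to 317. The summed level of the cytosolic members was 11273 CPM in WT DIFF replicate 4, against 8887 to 9244, where *HSPCB* alone was at 6456 CPM. The summed level of the proteasome members was 6434 CPM in DMD PROL replicate 2, against 6127 to 6157.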

How the results depend on the processing

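The counts of called members moved by more than 1.5 times in these cases. With library size alone, DMD DIFF against WT DIFF gave 12 higher and 3 lower, WT DIFF against PROL 22 lower, and the interaction 13 positive and 1 negative. Halved counts and the stricter filter, which dropped *DNAJA4*, each gave 1 lower in PROL and 0 higher in DMD DIFF against PROL, where 11 members were higher at an unadjusted p under 0.05. In WT DIFF against PROL, 2 were called higher with halved counts, with one fit over all 16 libraries, without *RN18S* and with the replicate block, the added one with the block being *PSMB10* at 0.61. The block changed no other call within a genotype. Between the genotypes the numbers pair different animals (correlations -0.0272 to 0.0987, 3 of 8 samples closest to their own number) and the block left the counts of calls within 1.5 times. The adjusted p alone, added after the data were seen, gave 3 higher and 4 lower in PROL, 17 and 11 in DIFF, 6 and 20 in WT, 8 and 12 in DMD, and 11 positive and 8 negative in the interaction. Leaving out single replicates gave 4 to 8 lower in DMD DIFF against WT DIFF, 1 to 3 higher in WT and 1 to 3 higher in DMD for DIFF against PROL, and 3 to 5 positive in the interaction. Differences near 0 changed sign, none of them called. In PROL, leaving out single replicates gave *PDIA4* from -0.0623 to 0.0284, *PDIA3* from -0.0804 to 0.118 and *PSME1* from -0.0713 to 0.0423. *PDIA3* was also at -0.00359 with halved counts, -0.0043 with the stricter filter and -0.14 with library size alone, a setting that gave *DNAJC19* -0.0409, *HSPD1* -0.105 and *PSMB6* -0.00955. *PSME1* was at 0.00511 with DESeq2, 0.00571 with RLE, 0.00922 in one fit, 0.00281 with the block and 0.00264 without *RN18S*. In the other comparisons, *CCT3* in DIFF was at 0.098 with library size alone and -0.104 to 0.0223 without single replicates, *DNAJA1* in WT at -0.124, *PSMB7* in DMD at -0.0523 and *HSPD1* in the interaction at 0.01996 with library size alone, and *DNAJC19* in the interaction at -0.0527 to 0.165 without single replicates. For library size alone, the changes went with its shift of all genes, and otherwise the cause was not tested. Depth limits the tests of *DNAJA4*, *FKBPL* and *PSMD4*, and leaves the 7 members with the fewest counts untested.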
